A study of Drosophila melanogaster with 8 samples.

Results

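The receptors for acetylcholine, GABA and glutamate are described here across fly heads in the starvation and food conditions. They were chosen by symbol from a written list of fast and metabotropic transmitter receptors. No expression value entered that rule, but the list was chosen with earlier results of these data known. All 31 listed genes were found among the 17518 named genes of the count table. They comprised 10 nicotinic acetylcholine receptor subunits, 3 muscarinic receptors, 3 subunits of GABA-gated and related chloride channels, 3 GABA-B receptors, 1 glutamate-gated chloride channel and 11 other glutamate receptors. Of the 31 genes, 29 had enough counts to be tested, out of 12048 genes tested in all. The study asked how flies respond to starvation, which raises their locomotor activity, and sequenced poly(A)+ RNA from whole heads. The starvation group held 4 samples of w1118 males kept for 1 day under starvation. The food group held 4 samples of w1118 males kept for 1 day on food. In both groups the males were 1 to 3 d old, each sample was a pool of 30 flies, and w1118, a white-eyed laboratory strain, was the only genotype.

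In the insect brain acetylcholine is the main fast excitatory transmitter, GABA is the main inhibitory one, and glutamate excites muscle but can also inhibit neurons through a chloride channel. Fast receptors are channels built of several subunits, pentamers in the nicotinic and GABA-gated families and tetramers in the glutamate-gated cation channels, so the set of subunits made by a cell shapes the current that it carries. Metabotropic receptors are single proteins or dimers that act more slowly through G proteins.

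Under starvation 7 of the 29 tested receptors changed, 5 higher and 2 lower. Only nAChRbeta3 had an estimated change of more than 2-fold, and tested against a 2-fold change it was not called. The 5 higher genes were GluRIIA and GluRIIE, subunits of the glutamate receptor of the neuromuscular junction, the nicotinic subunits nAChRalpha2 and nAChRbeta2, and Lcch3, a subunit of GABA-gated channels. Their log2 fold changes lay between 0.21 and 0.51. The 2 lower genes were nAChRbeta3, at -2.15, and Grd, another subunit of GABA-gated channels, at -0.36. Calls required an adjusted p under 0.05, from the quasi-likelihood F test of edgeR with p-values adjusted by Benjamini-Hochberg over the 12048 genes, and fold changes are starvation over food. The 24.1% of receptors called stood beside 26.7% of all genes tested. The 5 higher calls stood beside a background of 10% and the 2 lower calls beside a background of 16.7%. With a fold threshold of 2 added, 1 receptor was called, against 6.3% of all genes. The median log2 fold change was 0.04 over the 29 receptors and -0.01 over all genes tested. Leaving out food replicate 1, 2 or 3 left 3, 2 and 3 receptor calls (10.3%, 6.9% and 10.3%), against 19.9%, 19.6% and 21.5% of all genes in the same fits. Leaving out starvation replicate 4 left 4 (13.8%), against 21.5%.

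The other 22 tested receptors had log2 fold changes between -0.13 and 0.29, with adjusted p from 0.062 to 0.987. Their 95% confidence intervals lay within -0.56 and 0.67. For 28 of the 29 tested genes the interval lay inside a 2-fold change in either direction. For 7 of the 29 receptors the conditions did not overlap, with the starvation libraries all above or all below the food libraries (24.1%), 6 higher and 1 lower, against 31.2% of all genes tested.

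**Figure D1:**
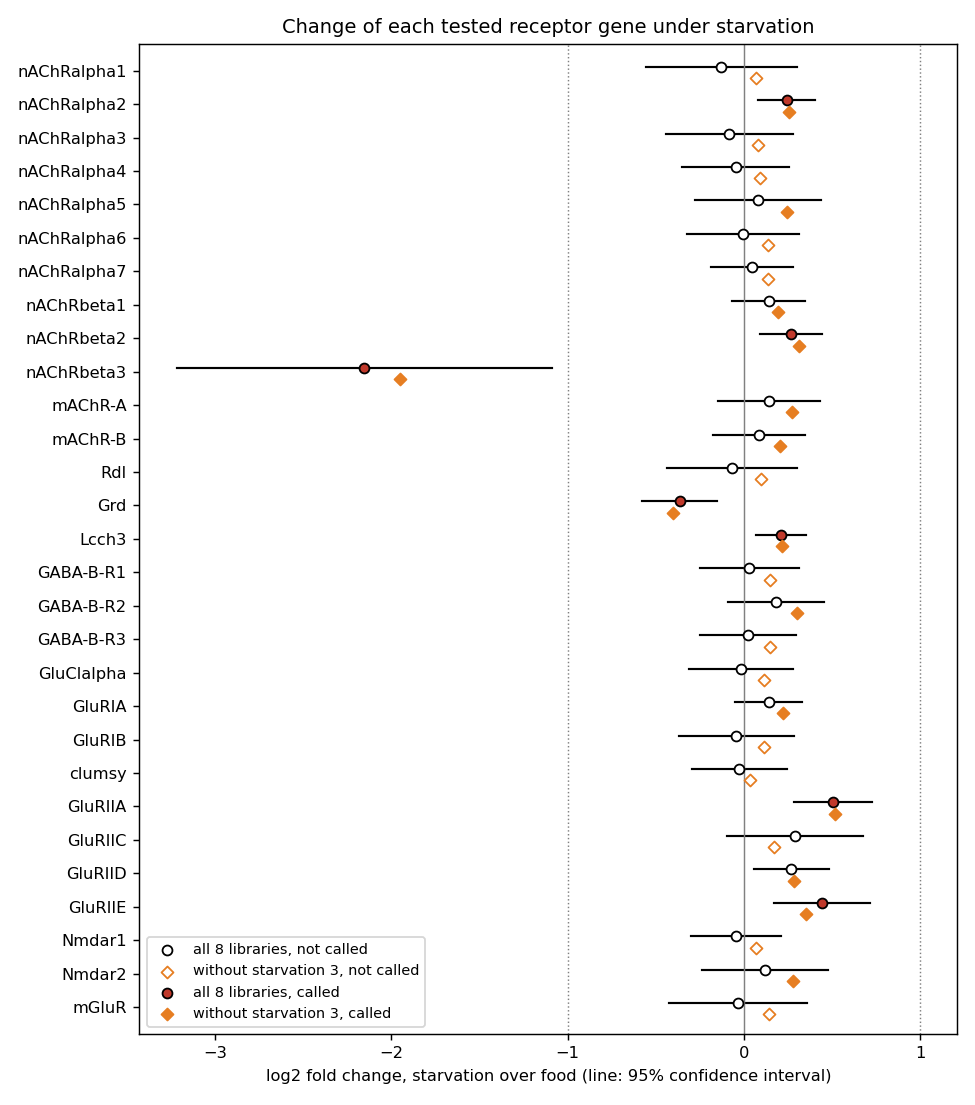
Log2 fold change of each of the 29 tested receptor genes, starvation over food (x axis), with 1 row per gene. Circles give all 8 libraries with their 95% confidence intervals and diamonds give the fit without starvation replicate 3, filled where the adjusted p was under 0.05. nAChRbeta3, at -2.15, is the one gene beyond the dotted lines at a 2-fold change.

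One library bears on most of these values. Starvation replicate 3 was the lowest of all 8 libraries for 18 of the 29 tested receptors, and lay below the other 3 starvation libraries for 21 of them, against 35.5% of all genes tested. Its log2 ratio to the mean of the other starvation libraries lay between -1.01 for nAChRalpha1 and 0.43 for GluRIIC, with a median of -0.54. The ratio was lower for receptors with longer transcripts. Across the 29 receptors its Spearman correlation with exonic length was -0.719, and across all genes tested it was -0.525, a description across genes that share one library. The receptors were long, with a median exonic length of 4170 bases against 1899 bases for all genes tested. The neuronal markers fixed as a list (elav, nSyb, brp and 7 others) moved with the receptors in this library, with a summed level of 5335 CPM against 7772 to 8638 CPM in the other starvation libraries and 7168 to 7940 CPM on food. The share of counts on the 10 most abundant genes was 25.6% there and 17.7% to 20.3% elsewhere, and that on mitochondrial genes was 21.9% there and 14.1% to 16.6% elsewhere. Photoreceptor markers, which mark a head, were abundant throughout. Their sums were 37892 CPM in starvation replicate 3, 30342 to 32628 CPM in the other starvation libraries and 25409 to 28756 CPM on food. With all 8 libraries 5 of 11 were called higher (45.5%) and 0 lower, against 10% and 16.7% of all genes tested. Exonic lengths ran from 2282 (Snap25) to 22598 bases (unc-13) for neuronal markers. For photoreceptor markers they ran from 1349 (Rh4) to 8296 bases (norpA). The log2 ratio of starvation replicate 3 to the other starvation libraries was -0.17 for Snap25, -0.85 for unc-13, 0.37 for Rh4 and -0.36 for norpA. Syx1A, at 4164 bases, had the lowest ratio of the neuronal markers, -1.97. The part of RNA quality, transcript length or tissue makeup in starvation replicate 3 was not tested.

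Without starvation replicate 3, 13 receptors were higher and 2 were lower, against a background of 15.9% higher and 21.6% lower among 12208 genes. All 7 genes called with the 8 libraries were called again. The 8 further calls were all higher under starvation. They were the nicotinic subunits nAChRalpha5 (log2 fold change 0.24) and nAChRbeta1 (0.20), the muscarinic receptors mAChR-A (0.27) and mAChR-B (0.20), GABA-B-R2 (0.30), GluRIA (0.22), GluRIID (0.28) and the NMDA receptor subunit Nmdar2 (0.28). Of the 29 receptors 27 then had a positive log2 fold change (93.1%), against 50.5% of all genes tested, and with the 8 libraries 17 were positive (58.6%), against 48.3%. The median log2 fold change was 0.15 for the receptors and 0.004 for all genes. With the trend of each library with exonic length also taken out, a fit added with the values known, the median was 0.13 for the receptors and 0.10 for all genes, and 13 receptors (44.8%) were higher against 26.2% of all genes. The neuronal markers showed 3 of 10 higher and 0 lower without this library, with a median of 0.10, and 0 of 10 called in either direction with it. Glial markers were lower in 8 of 8 genes and fat body markers in 5 of 6 genes with all 8 libraries. Log2 fold changes of the fat body markers ran from -8.03 for Lsp2 to -0.49 for Fbp1, which was not called. Among all genes tested with the 8 libraries, 16.7% were lower. The libraries measure shares of the head's RNA. In such bulk samples fewer cells of a type, less RNA per cell and lower expression of the marker genes themselves cannot be told apart.

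**Figure D2:**
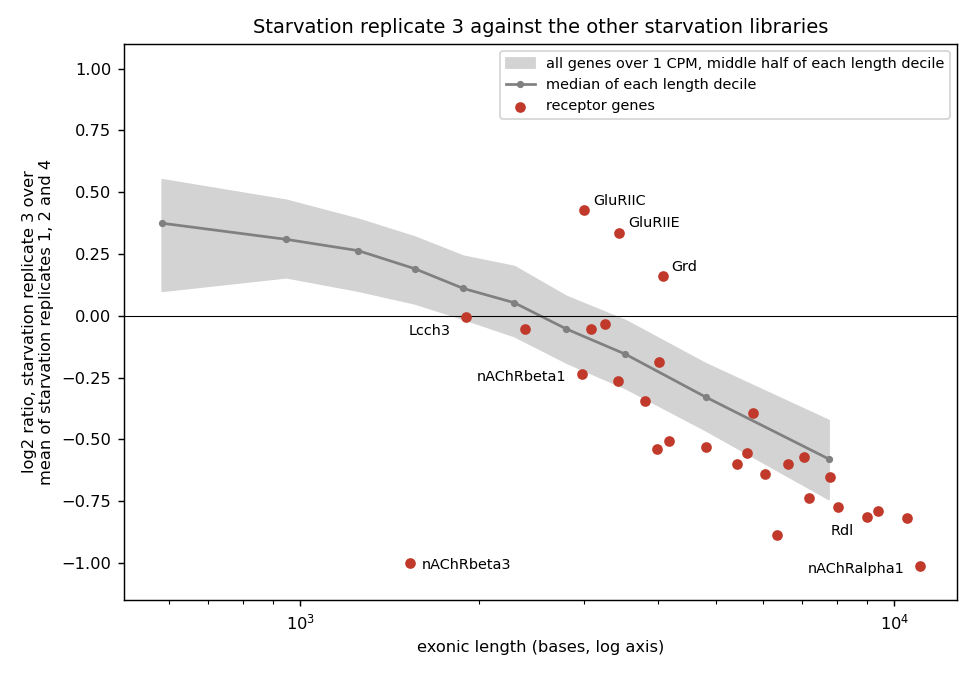
Log2 ratio of starvation replicate 3 to the mean of starvation replicates 1, 2 and 4 (y axis) against exonic length in bases (x axis, log scale). Red points are the 29 tested receptors, and the grey line and band give the median and the middle part of all genes over 1 CPM in each length class. The long genes nAChRalpha1 (11027 bases) and Rdl (8994 bases) lie far below 0, and GluRIIC, GluRIIE and Grd lie above it.

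The levels of the receptors spanned a wide range. Levels between genes are given as TMM-normalized CPM, counts scaled to library size, per kb of exonic length, as means over the 8 libraries. nAChRbeta1, the beta subunit shared by many nicotinic receptors of the brain, was the most abundant at 161 CPM per kb and its level exceeded that of 96.7% of the genes tested. It was followed by GluClalpha, the glutamate-gated chloride channel, at 71.5, Rdl, the main GABA-gated chloride channel, at 61.3, nAChRalpha7 at 60.2 and GABA-B-R2 at 47.0 CPM per kb. In every library nAChRbeta1 lay above the next gene, whereas the ranges of GluClalpha, Rdl and nAChRalpha7 overlapped, so their order was within the spread. At the low end were the subunits of the neuromuscular junction, GluRIIA at 2.77, GluRIIE at 2.61, GluRIID at 1.70 and GluRIIC at 0.99 CPM per kb. GluRIID lay above GluRIIC, and GluRIIC above the genes below it, in all 8 libraries. The 31 genes together took 0.303% to 0.47% of all counts in each library.

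Both untested genes were near the limit of detection. mAChR-C, the third muscarinic receptor, had 9, 6, 0 and 11 counts in starvation replicates 1 to 4, against 6, 6, 4 and 6 counts in food replicates 1 to 4. A count of 0 allows up to 3 counts, or 0.0587 CPM, in starvation replicate 3. GluRIIB, which can take the place of GluRIIA at the larval neuromuscular junction, had 4, 8, 11 and 6 counts in starvation libraries, against 4, 6, 5 and 4 counts in food libraries. No difference was detectable at these counts for either gene.

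**Figure D3:**
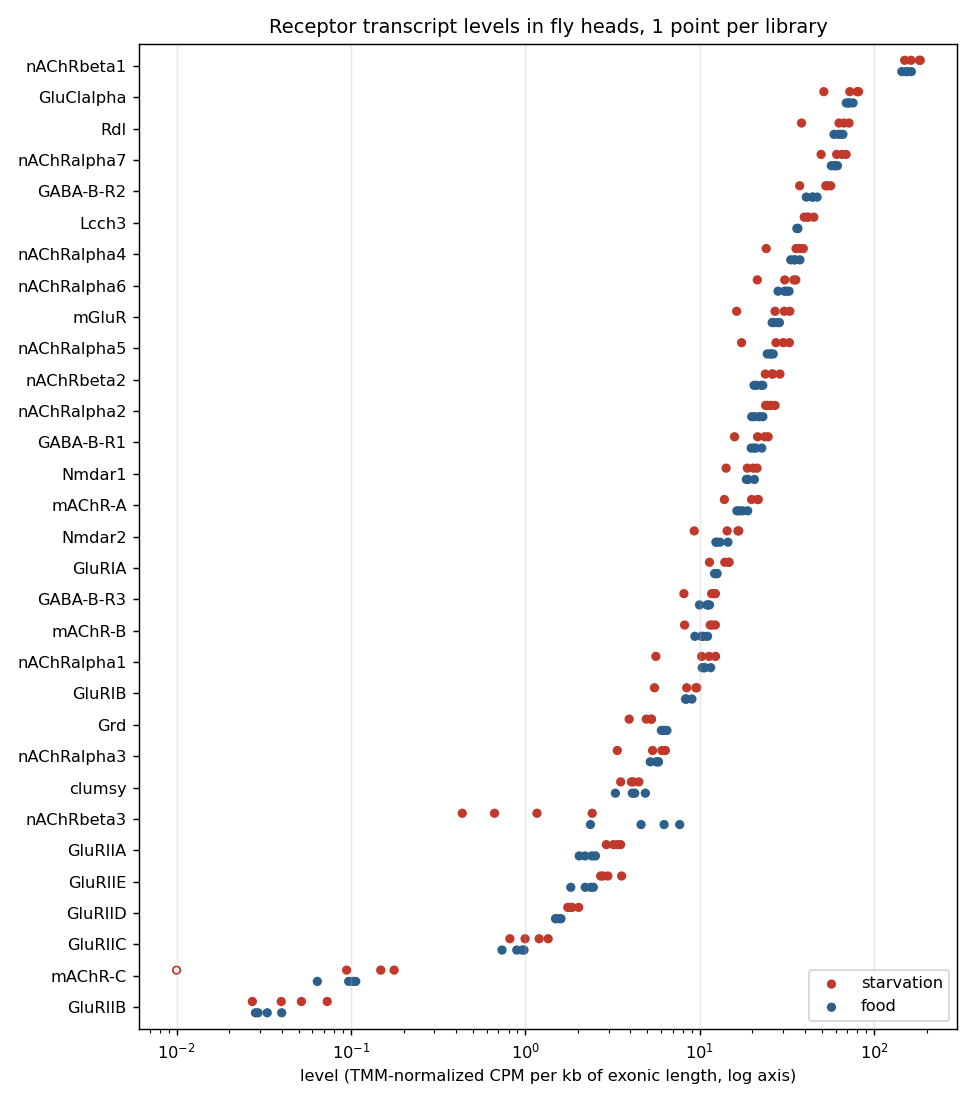
Level of each of the 31 receptor genes in every library, in TMM-normalized CPM per kb of exonic length (x axis, log scale), ordered by mean level, with starvation libraries in red and food libraries in blue. nAChRbeta1 is at the top at 161 CPM per kb, the neuromuscular junction subunits are near the bottom, the open circle stands for a count of 0, and the red point left of the rest in most rows is starvation replicate 3.

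The nicotinic subunits form the cation channels of fast cholinergic synapses. Of the 10 genes, 2 were higher and 1 was lower under starvation, and 7 were not called. nAChRbeta1 had 539, 482, 444 and 545 CPM in starvation replicates 1 to 4, against 427, 458, 455 and 485 CPM in food replicates 1 to 4. The conditions overlapped, with starvation replicate 3 below food replicates 2, 3 and 4. Its log2 fold change was 0.14, with a 95% confidence interval of -0.07 to 0.35 (edgeR adjusted p = 0.319). The subunits nAChRalpha1, nAChRalpha3, nAChRalpha4, nAChRalpha5, nAChRalpha6, a target of the insecticide spinosad, and nAChRalpha7, which serves the giant fiber escape circuit, had log2 fold changes between -0.13 and 0.08. Among these 6, starvation replicate 3 was the lowest of the 8 libraries in every case.

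nAChRalpha2, on chromosome 3R from 24485428 to 24491147, encodes a ligand-binding subunit. It had 60.9, 56.8, 58.4 and 64.4 CPM in starvation libraries, against 47.3, 49.0, 52.1 and 54.8 CPM in food libraries. Every starvation library lay above every food library (p = 0.0286 by an exact two-sided permutation test, which 4 against 4 samples cannot go below). The log2 fold change was 0.24 (standard error 0.07, adjusted p = 0.0303 from edgeR). Its neighbour nAChRbeta2, 18080 bases further along the arm from 24509228 to 24515106, had 104.2, 105.3, 95.3 and 115.6 CPM in starvation libraries and 82.1, 92.1, 90.2 and 84.5 CPM in food libraries. The conditions did not overlap either, and the log2 fold change was 0.27 (standard error 0.08, adjusted p = 0.029 from edgeR). nAChRalpha1 lies 28270 bases on the other side of nAChRalpha2. It had 124.5, 112.9, 61.7 and 135.5 CPM in starvation libraries and 117.1, 117.1, 113.7 and 127.0 CPM in food libraries, with a log2 fold change of -0.13 (95% confidence interval -0.56 to 0.30). The 3 genes of this stretch therefore included 2 calls and 1 gene whose conditions overlapped. The call of nAChRalpha2 was lost without food replicate 1, 2 or 3 or starvation replicate 4 (adjusted p 0.0552 to 0.0992), and that of nAChRbeta2 without any 1 food replicate or starvation replicate 2 (adjusted p 0.0509 to 0.0955), while the direction stayed.

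nAChRbeta3, a divergent nicotinic subunit on chromosome 2L from 545129 to 547096, showed the largest change of the 29 tested genes. It had 1.78, 3.70, 1.02 and 0.67 CPM in starvation libraries, against 9.55, 11.7, 7.04 and 3.61 CPM in food libraries. Food libraries were higher in general, but starvation replicate 2 lay just above food replicate 4 and the conditions overlapped in that pair (p = 0.0571 by an exact two-sided permutation test). The log2 fold change was -2.15 (standard error 0.48, adjusted p = 0.0069 from edgeR), and its 95% confidence interval ran from -3.22 to -1.09. Tested against a 2-fold change with edgeR's glmTreat, the fall was not called (adjusted p = 0.174), and 0 of the 29 receptors were, with 1 at an unadjusted p under 0.05. Without starvation replicate 3 the log2 fold change was -1.95.

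The spread of nAChRbeta3 within each condition ran beside that of the summed hemocyte marker list. That list held 5 markers (Hml, NimC1, srp, Ppn and vkg). Their summed level was 144, 208, 91.9 and 85.9 CPM in starvation replicates 1 to 4. In food replicates 1 to 4 it was 524, 629, 447 and 313 CPM. All 5 were called lower (100%), against 16.7% of all genes tested. In both conditions replicate 2 was highest for nAChRbeta3 and for the marker sum, followed by replicates 1, 3 and 4. Hml, NimC1 and Ppn each kept this order. For srp, food replicate 3 was highest (41.5 CPM, against 41.3 in replicate 1), and starvation replicate 3 (18.5 CPM) exceeded replicate 1 (13.6 CPM). For vkg, starvation replicate 4 (59.2 CPM) exceeded replicate 3 (54.0 CPM). Expressed as a share of the marker sum, a comparison chosen after the values were seen, nAChRbeta3 stood at 1.22 ± 0.416% in starvation libraries and 1.61 ± 0.326% in food libraries (SD, n = 4 each; exact two-sided permutation test, p = 0.229). The fat body, a tissue that also expresses srp and vkg, had summed marker levels of 480 to 663 CPM under starvation and 5546 to 9350 CPM on food. None of the 5 hemocyte markers was at 0 in a library, and the part of these cells in the fall of nAChRbeta3 was not tested.

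**Figure D4:**
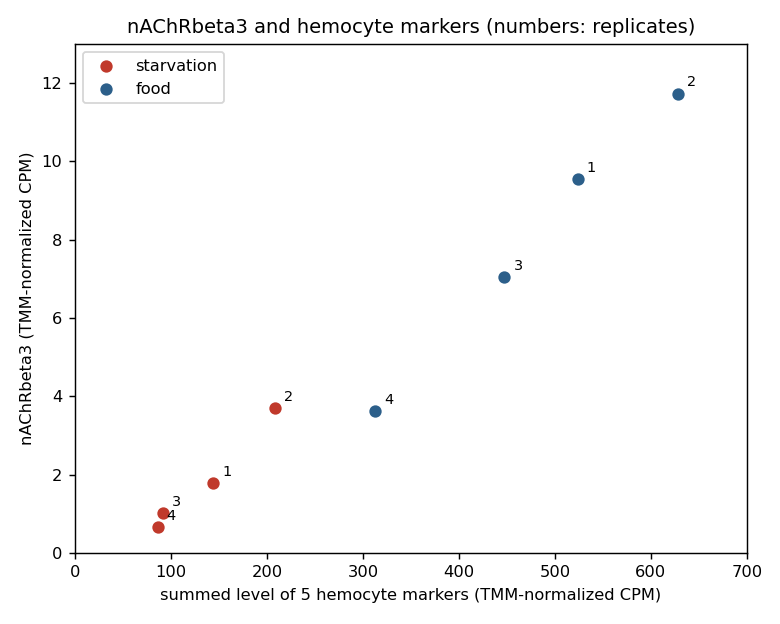
nAChRbeta3 in TMM-normalized CPM (y axis) against the summed level of the 5 hemocyte markers in TMM-normalized CPM (x axis), with 1 point per library, starvation in red and food in blue, and replicate numbers beside the points. In both conditions the points run in the order 4, 3, 1, 2 along both axes.

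Within the summed nicotinic level per kb, nAChRbeta1 made up 43.6 ± 2.14% in starvation libraries and 41.6 ± 1.07% in food libraries (SD, n = 4 each). nAChRalpha7 made up 15.7 ± 0.19% in starvation libraries and 16.1 ± 0.361% in food libraries. nAChRbeta3 made up 0.303 ± 0.228% in starvation libraries and 1.42 ± 0.628% in food libraries. None of the 15 subunit shares compared, 10 nicotinic and 5 of the neuromuscular junction, passed an adjusted p of 0.05 (exact two-sided permutation tests), with 2 under an unadjusted p of 0.05 and 0.143 as the smallest adjusted p. With 4 against 4 samples these permutation tests cannot go below p = 0.0286. After adjustment over 15 shares, none could have passed unless most of them stood at that smallest p. The absence of calls therefore does not decide whether composition changed, and such shares depend on each other.

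Muscarinic receptors carry the slow action of acetylcholine through G proteins. mAChR-A had 117.2, 107.3, 74.9 and 116.2 CPM in starvation libraries, against 95.2, 91.2, 88.4 and 101.9 CPM in food libraries. Starvation replicates 1, 2 and 4 lay above all food libraries and replicate 3 lay below them. With 8 libraries its log2 fold change was 0.14, with a 95% confidence interval of -0.15 to 0.43 (edgeR adjusted p = 0.49), and without starvation replicate 3 it was 0.27 (adjusted p = 0.0065). mAChR-B showed the same split, with a log2 fold change of 0.08 from 8 libraries and 0.20 without starvation replicate 3 (adjusted p = 0.668 and 0.0303 from edgeR).

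The GABA-gated family gave calls in opposite directions. Rdl, named for resistance to the insecticide dieldrin, had 603, 564, 344 and 644 CPM in starvation libraries, against 576, 560, 528 and 594 CPM in food libraries. The conditions overlapped and the log2 fold change was -0.07, with a 95% confidence interval of -0.44 to 0.30 (edgeR adjusted p = 0.815). Grd and Lcch3, which together form a GABA-gated cation channel when expressed in frog oocytes, were both called and at lower levels than Rdl. Grd, on chromosome 3L from 17823333 to 17839767, had 20.1, 21.5, 21.4 and 16.0 CPM in starvation libraries and 25.8, 26.3, 25.04 and 24.5 CPM in food libraries, a log2 fold change of -0.36 with a standard error of 0.10 (adjusted p = 0.0168 from edgeR). Lcch3, on chromosome X from 15925105 to 15928529, had 75.4, 78.7, 79.6 and 85.6 CPM in starvation libraries and 68.4, 69.0, 69.1 and 69.3 CPM in food libraries, a log2 fold change of 0.21 with a standard error of 0.07 (adjusted p = 0.0341 from edgeR). Neither gene overlapped between the conditions (exact two-sided permutation test, p = 0.0286 for each), and neither was lowest in starvation replicate 3. The call of Grd was lost without food replicate 1 or 2 or starvation replicate 1 or 4 (adjusted p 0.0502 to 0.0694). That of Lcch3 was lost without any 1 food replicate or starvation replicate 2 or 4 (adjusted p 0.0651 to 0.0938). Grd was also not called with upper-quartile factors (edgeR adjusted p = 0.0829) or with the length trend taken out of all 8 libraries (0.0541). With scaling to neuronal markers neither gene was called (edgeR adjusted p = 0.7 for Grd and 0.407 for Lcch3).

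GABA-B receptors act through G proteins, with GABA-B-R1 and GABA-B-R2 working as a pair. GABA-B-R2 had 214.0, 210.1, 148.8 and 224.1 CPM in starvation libraries, against 162.4, 175.9, 177.1 and 187.4 CPM in food libraries. Starvation replicates 1, 2 and 4 lay above all food libraries, and replicate 3 lay below all of them. Its log2 fold change was 0.18, with a 95% confidence interval of -0.09 to 0.45 (edgeR adjusted p = 0.329), and 0.30 without starvation replicate 3 (adjusted p = 0.0028). GABA-B-R1, its partner, stood at 0.03 from 8 libraries and 0.15 without that library, and GABA-B-R3 at 0.02 and 0.15, none of them called.

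GluClalpha, an inhibitory channel of the insect brain and a target of ivermectin, had 529, 480, 340.5 and 539 CPM in starvation libraries, against 479, 472, 458 and 501 CPM in food libraries. The conditions overlapped, and its log2 fold change of -0.02 had a 95% confidence interval of -0.31 to 0.28 (edgeR adjusted p = 0.945). mGluR, a metabotropic glutamate receptor on chromosome 4, had 193, 171, 103 and 208 CPM in starvation libraries and 165, 177, 169 and 181 CPM in food libraries. Its log2 fold change was -0.03, with a 95% confidence interval of -0.43 to 0.36 (edgeR adjusted p = 0.914). Both genes were lowest in starvation replicate 3, and neither was called without it, at 0.11 for GluClalpha and 0.14 for mGluR.

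Of the cation channels gated by glutamate in the brain, the AMPA type receptors GluRIA and GluRIB, the kainate type subunit clumsy, and Nmdar1 and Nmdar2 of the NMDA receptor, none was called with 8 libraries. GluRIA had 55.9, 52.9, 43.2 and 55.9 CPM in starvation libraries, against 46.3, 47.7, 47.7 and 47.0 CPM in food libraries. Its log2 fold change was 0.14 (adjusted p = 0.277 from edgeR), and 0.22 without starvation replicate 3 (adjusted p = 0.0038). Nmdar1, the subunit that NMDA receptors require, had 84.2, 78.0, 58.9 and 88.6 CPM in starvation libraries and 77.0, 77.8, 78.7 and 85.5 CPM in food libraries, with a log2 fold change of -0.04 (95% confidence interval -0.30 to 0.21). In both genes starvation replicate 3 was below every other library. Nmdar2 stood at 0.12 from 8 libraries (adjusted p = 0.654) and at 0.28 without that library (adjusted p = 0.0141). GluRIB stood at -0.04 and 0.11 and clumsy at -0.03 and 0.04 in the same fits, with no call.

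The neuromuscular junction subunits were the class with the highest median log2 fold change, 0.37 over its 4 tested genes. At larval muscle GluRIIC, GluRIID and GluRIIE are required in every receptor and are joined by GluRIIA or GluRIIB. GluRIIA, on chromosome 2L from 5555072 to 5558994, had 9.46, 10.996, 10.4 and 11.4 CPM in starvation libraries, against 6.61, 8.19, 7.81 and 7.14 CPM in food libraries. The conditions did not overlap (p = 0.0286 by an exact two-sided permutation test), and the log2 fold change was 0.51 (standard error 0.10, adjusted p = 0.0036 from edgeR). GluRIIE, on chromosome 3R from 20644154 to 20648716, had 10.2, 9.60, 12.3 and 9.29 CPM in starvation libraries and 8.17, 7.58, 6.26 and 8.44 CPM in food libraries. It too was higher in every starvation library, with a log2 fold change of 0.44 and a standard error of 0.12 (adjusted p = 0.0218 from edgeR). That call was lost without food replicate 2 or 3 (adjusted p 0.0579 and 0.0608), and that of GluRIIA held without any 1 library.

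GluRIID, from 20648595 to 20652450 on the same arm, had 5.69, 5.38, 5.56 and 6.221 CPM in starvation libraries and 4.58, 4.92, 4.84 and 4.62 CPM in food libraries. The conditions did not overlap, yet the log2 fold change of 0.27 had an adjusted p of 0.062 from edgeR and was not called. GluRIIC had 2.44, 2.99, 4.05 and 3.60 CPM in starvation libraries and 2.20, 2.68, 2.95 and 2.88 CPM in food libraries, with a log2 fold change of 0.29 (95% confidence interval -0.10 to 0.67, adjusted p = 0.27 from edgeR). The annotated spans of GluRIID and GluRIIE share 122 bases, and that of GluRIIA overlaps CG14017, so the counting could have shared reads between these genes. Starvation replicate 3 was the highest library for GluRIIC and GluRIIE, unlike most receptors. The 12 muscle markers had 0 higher and 0 lower calls from edgeR, against 10% and 16.7% of all genes tested. Their log2 fold changes ran from -0.42 for Mhc to 0.24 for Mlc1, with a median of 0.006. Their summed levels were 7892 to 9966 CPM under starvation and 8678 to 10747 CPM on food. Without starvation replicate 3, 1 was higher and 0 were lower, against 15.9% and 21.6%. With the length trend taken out of all 8 libraries, 3 were higher and 1 was lower, against 24.3% and 16.2%.

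**Figure D5:**
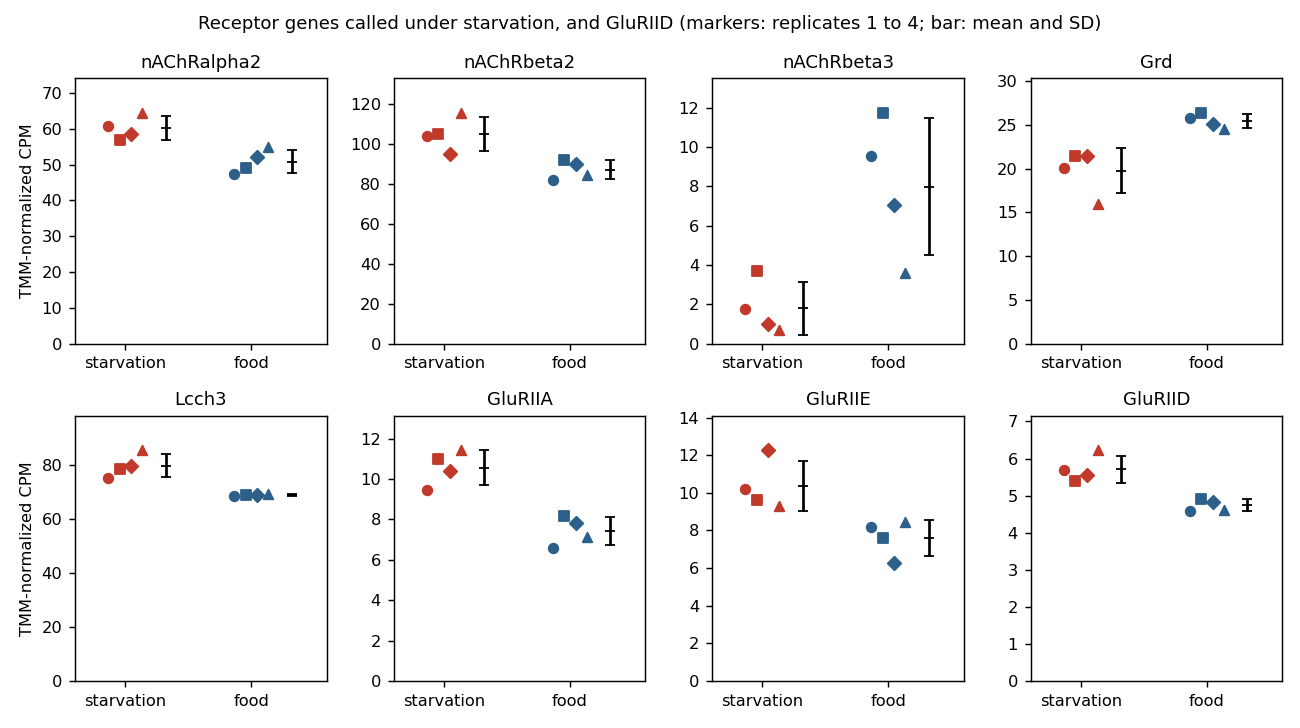
TMM-normalized CPM (y axes, from 0) of the 7 called receptors and GluRIID in each library, starvation left in red and food right in blue, with replicates 1 to 4 as circle, square, diamond and triangle and bars for the mean and SD of 4 samples. Only nAChRbeta3 overlaps between the conditions, in starvation replicate 2 and food replicate 4.

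Of 14 genes that make, release and clear these transmitters, 1 was higher (7.14%) and 4 were lower (28.6%) under starvation, against 10% and 16.7% of all genes tested, and 9 were not called. The most abundant per kb was Gs2, glutamine synthetase of glia, with 697 ± 78.1 CPM in starvation libraries and 1210 ± 82.7 CPM in food libraries (SD, n = 4 each). Its log2 fold change was -0.80 (adjusted p = 2.3e-04 from edgeR). The other lower genes were Gat, the GABA transporter, at -0.87, Eaat1, a glial glutamate transporter, at -0.63, and Gabat, the GABA transaminase that degrades GABA, at -0.29. Eaat2, a related transporter, was higher at 0.31. The biosynthetic enzymes ChAT and Gad1 and the vesicular transporters VAChT, VGAT and VGlut were not called, with log2 fold changes between -0.13 and 0.05. Gs2 and Eaat1 are themselves on the glial marker list, so that list is not independent of the lower genes. Its 8 genes had a median log2 fold change of -0.62. Their summed levels were 1723 to 2046 CPM under starvation and 2811 to 3146 CPM on food. Of these, Gs2 and Eaat1 had means of 697 and 387 CPM under starvation and 1210 and 600 CPM on food. The other glial markers ran from -0.98 for wrapper to -0.32 for alrm (adjusted p = 3.0e-05 and 0.0481 from edgeR). The part of glial cell number in these changes was not tested.

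Among 11 partners and scaffolds of the receptors 1 was higher (9.09%) and 0 were lower, against the same 10% and 16.7%. Grip, an adaptor that binds glutamate receptors in mammals, was higher at 0.76, with 14.2 ± 1.11 CPM in starvation libraries and 8.38 ± 1.05 CPM in food libraries (SD, n = 4 each; adjusted p = 3.7e-04 from edgeR). No other partner was called in either direction, including Hasp, the most abundant per kb. Of 12 further channels of the same superfamilies, 10 were tested, 1 was higher (10%) and 2 were lower (20%). Grik, a kainate type subunit, was higher at 0.68, with 28.2 ± 1.29 CPM in starvation libraries and 17.6 ± 1.32 CPM in food libraries (adjusted p = 8.2e-05 from edgeR). CG7589 and CG12344, both of the family of pentameric channels, were lower at -1.10 and -0.55. CG11155, the most abundant per kb, stood at 0.06 and was not called. Without starvation replicate 3 the calls were 2 higher and 5 lower for the transmitter genes and 3 higher and 1 lower for the partners. The further channels then had 1 higher and 2 lower. Of all genes tested in that fit, 15.9% were higher and 21.6% were lower.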

How the data were processed

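Poly(A)+ RNA of 8 head samples was sequenced. The authors mapped reads with STAR 2.6.1b to release 6 of the genome, merged the flow cells of each sample, so that they cannot be separated here, and deposited raw counts per gene made with ASpli. The use of strand was not given in the sources used here. Samples were grouped by their labels. The row without a gene name (1) held 0.0042% to 0.0054% of counts and was left out. Totals were 47936038 to 53168449 counts, and the common biological coefficient of variation was 0.138. From the deposited counts, edgeR 4.0.16 (R 4.3.3) gave TMM-normalized CPM, a filter (filterByExpr) and quasi-likelihood tests of 12048 genes, and the scripts were tested on simulated data. Standard errors were derived from each fold change and its F statistic. With 4 samples per condition, p-values measure the spread between pools of flies. No 2 samples of a condition agreed within sampling noise.

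The receptors, gene lists and tests were chosen with earlier results of these data known. Receptors called, and the most abundant per kb of the rest in each class, are given per library. Other genes are named where called or most abundant in their list, and further ones after their values were seen. Symbols were matched to the table and, for 3 listed genes, through RefSeq synonyms. All 31 receptors had the same coordinates in RefSeq. Alternatives used DESeq2 1.42.0, limma 3.58.1 (voom), RLE and upper-quartile factors, 2 other filters, a replicate block, a correction for exonic length, scaling to neuronal markers and each library left out.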

Additional observations from a re-analysis of the deposited data

Results flagged for a closer look

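Among 58 sets of 4 libraries (29 tested receptors in 2 conditions), 2 held a library that stood far from the other 3, and chance gives about 1 in 20, or 2.9. GABA-B-R3 had 57.0 CPM in starvation replicate 3, against 82.1 to 86.3 CPM in the other starvation libraries. GluRIB had 64.7 CPM in food replicate 4, against 59.4 to 60.0 CPM in the other food libraries.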

How the results depend on the processing

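nAChRbeta3 was called lower in each of 20 alternatives, with log2 fold changes from -2.79 to -1.81 and adjusted p from 3.2e-05 to 0.0397 (edgeR, DESeq2 or limma), and none of the 7 called receptors changed direction in any of them. The calls of nAChRalpha2, nAChRbeta2, Grd, Lcch3, GluRIIE and GluRIIA were lost in 5, 7, 7, 8, 3 and 1 of the 20, and the cause was not tested. Of the 7 calls, 3 were left without food replicate 1, 2 without food replicate 2, 3 without food replicate 3 and 4 without starvation replicate 4, fits that also have fewer samples. Over the libraries left out in turn, the count called ran from 2 to 15, the count lower from 1 to 2 and the count higher from 1 to 13, with 15 and 13 reached without starvation replicate 3. The median log2 fold change of the receptors was -0.0070 without starvation replicate 4 and 0.15 without starvation replicate 3. With that library left out and the length trend taken out, chosen after the data were seen, 15 were called (51.7%, against 42.6% of all genes) and 13 were higher (44.8%, against 26.2%), with a median log2 fold change of 0.131 for the receptors and 0.101 for all genes. With the length trend taken out of all 8 libraries, 9 were higher and 1 was lower, so that 34.5% were called against 40.5% of all genes. With the trend taken out within each condition, also chosen after the data were seen, 6 were higher and 2 were lower (27.6% called, against 34.7%). With upper-quartile factors 7 were higher (24.1%, against 19% of all genes) and 1 was lower, so that 27.6% were called against 31.8% of all genes. Scaling to the neuronal markers, whose levels themselves varied in starvation replicate 3, left 1 call, 1 lower and 0 higher in edgeR, with 2 higher at an unadjusted p under 0.05. That scaling called 3.45% of the receptors and 4.74% of all genes. These 3 scalings moved the median of all genes by 0.104 (length), 0.117 (upper quartile) and 0.119 (neuronal). Tested against 2-fold, 0 were called. With a replicate block 3 were higher and 2 were lower (17.2% called, against 26.7% of all genes), and nAChRbeta2 and Lcch3 were not called (edgeR adjusted p = 0.0502 and 0.0595). Across all genes tested, same-numbered samples deviated together with correlations of 0.0188, 0.0626, 0.123 and 0.169, so the numbers were not taken to pair the samples. For nAChRbeta3, however, the replicates stood in the same order in both conditions. Each starvation library also lay below the food library of the same number. The lowest adjusted p of nAChRbeta3, 3.2e-05, came from the replicate block in edgeR, with a log2 fold change of -2.28.

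Changes of direction concerned uncalled receptors near 0. DESeq2 and RLE factors gave a log2 fold change of 0.015 for nAChRalpha6 and 0.0025 for GluClalpha. nAChRalpha6 stood at 0.0074 with no filter and 0.010 without the 10 most abundant genes. With the length trend taken out, values turned to 0.0014 for nAChRalpha3, 0.0077 for nAChRalpha4, 0.062 for nAChRalpha6, 8.6e-04 for Rdl, 0.043 for GluClalpha, 0.015 for GluRIB, 0.039 for clumsy, 0.014 for Nmdar1 and 0.011 for mGluR. With starvation replicate 3 also left out, they were 0.027 for nAChRalpha1, 0.040 for nAChRalpha3, 0.065 for nAChRalpha4, 0.097 for nAChRalpha6, 0.056 for Rdl, 0.082 for GluClalpha, 0.076 for GluRIB, 0.070 for clumsy, 0.078 for Nmdar1 and 0.11 for mGluR. Scaling to neuronal markers gave 0.018 for nAChRalpha4, 0.058 for nAChRalpha6, 0.051 for GluClalpha, 0.011 for GluRIB, 0.078 for clumsy, 0.032 for Nmdar1 and 0.0047 for mGluR. Upper-quartile factors gave 0.027 for nAChRalpha3, 0.065 for nAChRalpha4, 0.11 for nAChRalpha6, 0.043 for Rdl, 0.096 for GluClalpha, 0.069 for GluRIB, 0.087 for clumsy, 0.070 for Nmdar1 and 0.076 for mGluR.

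Leaving out 1 library at a time gave ranges of -0.24 to 0.067 for nAChRalpha1, -0.16 to 0.082 for nAChRalpha3, -0.10 to 0.090 for nAChRalpha4, -0.0070 to 0.24 for nAChRalpha5, -0.067 to 0.13 for nAChRalpha6, -0.15 to 0.098 for Rdl, -0.025 to 0.15 for GABA-B-R1, -0.016 to 0.15 for GABA-B-R3, -0.065 to 0.11 for GluClalpha, -0.10 to 0.11 for GluRIB, -0.12 to 0.064 for clumsy, -0.092 to 0.069 for Nmdar1 and -0.13 to 0.14 for mGluR. For mAChR-C and GluRIIB the counts were too low for any comparison.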
